A study of Mus musculus with 4 samples.

Results

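Group III of the p53 ChIP-Seq list comprises the peaks at which p53 binding fell with irradiation, and it holds 583 peaks, numbered from 6802 to the end of the list, beside 6641 of Group I, which gained p53, and 160 of Group II, which changed little. ChIP-Seq recovers the DNA bound by a protein with an antibody and sequences it, and a peak is a place where such DNA accumulates over input. The members were chosen by measured values, since the number of a peak is its place in the order of fold change in p53 binding after irradiation, with the largest gain first and the largest loss last. This order is therefore a description, and no test was run on it. The list gives a position of 100 bp and a number for each peak, and no height, count or fold. The study set the limits of the Groups by the fold, and its supplement lists a tag density and fold for each peak. These values, and the depth of the libraries, were not used here.

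The peaks come from 3 p53 libraries, 1 of HPC7 cells without treatment, 1 of Ba/F3 cells without treatment and 1 of irradiated Ba/F3 cells, taken 3 h after a dose of 3 Gy. No library came from irradiated HPC7 cells, so the change in p53 binding that defines the Groups was measured in Ba/F3 cells alone. A further library of the irradiated Ba/F3 cells, for the active chromatin mark H3K27ac, was not analysed here. The mouse line Ba/F3 represents progenitors of B cells, and the mouse line HPC7 multipotent progenitors of blood. Both lines stably expressed a triple-FLAG-tagged MYSM1 protein and were kept in puromycin, so that the untreated cells shared this background, and there was 1 library per condition with no replicate.

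p53 is a transcription factor that is stabilised by DNA damage and binds directly to a sequence made of a pair of half-sites, each with a C and a G at fixed positions. Its known targets arrest the cell cycle, repair DNA or kill the cell. Promoters rich in CpG dinucleotides form another class of sequence, which drives many genes that are active in most cells, and often carries binding sequences of factors such as SP1, NRF1, the ETS family and CREB. A transcription start site (TSS) is where the RNA of a gene begins, and a bidirectional promoter is a short stretch of DNA from which a pair of genes is read in opposite directions.

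The sequences that show best what these promoters look like are 9 windows of 200 bp centred on a Group III peak (mm9), which hold the end of the order, genes of the cell cycle, apoptosis and autophagy, and 4 bidirectional promoters, for which both genes are named. Each window is written 5′ to 3′ on the strand of the gene named first. Capitals mark the motifs searched: the GC box of SP1-like factors (GGGCGG), the NRF1 site (GCGCATGCG), the ETS site (CCGGAAGT), the cAMP response element or CRE (TGACGTCA), the E-box (CACGTG), and the cell cycle element known as CHR (TTTGAA), each on either strand.
Ccne1, peak 7032, chr7:38892537-38892736, minus strand: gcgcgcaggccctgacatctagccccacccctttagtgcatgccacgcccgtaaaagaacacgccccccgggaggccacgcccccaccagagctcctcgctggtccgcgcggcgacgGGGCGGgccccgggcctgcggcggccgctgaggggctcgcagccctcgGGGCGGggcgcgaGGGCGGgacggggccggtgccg
Anln, peak 7253, chr9:22193609-22193808, minus strand: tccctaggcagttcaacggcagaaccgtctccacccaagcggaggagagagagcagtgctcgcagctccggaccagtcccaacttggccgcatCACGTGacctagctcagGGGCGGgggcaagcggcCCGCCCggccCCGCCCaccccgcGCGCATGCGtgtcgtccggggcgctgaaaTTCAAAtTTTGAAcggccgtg
Apaf1 and Ikbip, peak 6921, chr10:90545454-90545653, minus strand: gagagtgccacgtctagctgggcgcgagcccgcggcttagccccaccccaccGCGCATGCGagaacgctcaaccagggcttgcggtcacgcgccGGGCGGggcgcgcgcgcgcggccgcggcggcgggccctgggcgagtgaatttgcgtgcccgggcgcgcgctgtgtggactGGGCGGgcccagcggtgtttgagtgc
Mrpl52, peak 6950, chr14:55045593-55045792, plus strand: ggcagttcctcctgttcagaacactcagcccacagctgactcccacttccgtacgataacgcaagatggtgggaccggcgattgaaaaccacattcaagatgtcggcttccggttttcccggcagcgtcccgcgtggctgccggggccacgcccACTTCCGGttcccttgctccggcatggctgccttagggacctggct
Atg5, peak 6936, chr10:43988075-43988274, plus strand: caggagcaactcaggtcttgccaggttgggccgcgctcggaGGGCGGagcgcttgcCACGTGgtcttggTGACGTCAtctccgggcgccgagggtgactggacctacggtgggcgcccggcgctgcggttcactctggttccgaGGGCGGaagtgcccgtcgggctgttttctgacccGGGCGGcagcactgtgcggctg
Slc25a40 and Dbf4, peak 7100, chr5:8422703-8422902, plus strand: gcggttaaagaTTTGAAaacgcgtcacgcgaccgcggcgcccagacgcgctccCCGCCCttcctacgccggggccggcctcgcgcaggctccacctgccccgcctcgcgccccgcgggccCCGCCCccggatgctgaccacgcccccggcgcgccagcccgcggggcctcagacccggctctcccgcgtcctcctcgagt
Ddx51 and Noc4l, peak 6957, chr5:111082356-111082555, plus strand: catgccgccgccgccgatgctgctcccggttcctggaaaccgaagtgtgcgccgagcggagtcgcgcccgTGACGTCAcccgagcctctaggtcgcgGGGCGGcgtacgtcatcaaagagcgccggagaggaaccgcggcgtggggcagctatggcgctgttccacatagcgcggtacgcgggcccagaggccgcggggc
Dhrs1 and 2610027L16Rik, peak 7327, chr14:56364420-56364619, minus strand: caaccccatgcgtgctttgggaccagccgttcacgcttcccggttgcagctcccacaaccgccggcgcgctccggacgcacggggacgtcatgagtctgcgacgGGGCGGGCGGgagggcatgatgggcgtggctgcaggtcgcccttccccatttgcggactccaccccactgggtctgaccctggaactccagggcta
Usp7, last peak, chr16:8739013-8739212, minus strand: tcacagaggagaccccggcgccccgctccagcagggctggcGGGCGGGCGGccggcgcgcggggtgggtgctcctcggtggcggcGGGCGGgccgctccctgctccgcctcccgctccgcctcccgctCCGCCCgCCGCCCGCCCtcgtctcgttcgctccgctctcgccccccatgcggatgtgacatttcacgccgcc
Among these windows, that of *Ccne1*, the cyclin that drives entry into S phase, held GC boxes and no other motif searched, whereas that of *Mrpl52*, a subunit of the mitochondrial ribosome, held an ETS site and no GC box. The window of *Anln*, the anillin of the cytokinetic ring, combined GC boxes with an NRF1 site, an E-box and CHR elements, and that of *Atg5*, which is needed to form autophagosomes, combined GC boxes with an E-box and a CRE.

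In Group III the p53 peaks stood at promoters of CpG-rich sequence. Of the 583 centres, 517 lay within 1 kb of a TSS (88.7%), compared with 18.6% of the peaks of all Groups, and 505 lay within 1 kb of a protein-coding TSS. In all, 484 of the 583 were CpG-rich (83.0%), so the description as CpG-rich promoters holds for most of the list, and the exceptions are given further on. Here a peak is CpG-rich when the 500 bp around its centre have at least 55% GC and at least 0.65 of the CpG dinucleotides expected from its bases. Of the 517 proximal Group III peaks, 468 were CpG-rich (90.5%, 95% Wilson interval 87.7% to 92.8%), against 217 of 794 proximal Group I peaks (27.3%, interval 24.3% to 30.5%), (two-sided Fisher's exact test, odds ratio 25.4, adjusted p = 2.15e-122, Benjamini-Hochberg over 6 tests). In Group II 53 of 65 proximal peaks were CpG-rich (81.5%), a smaller share than in Group III (exact test, odds ratio 2.16, adjusted p = 0.0486). Since peaks do not replicate a condition, these intervals and tests describe the list and cover counting error over peaks only.

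The 200 bp around a proximal Group III centre had a median GC content of 70.5%, with the middle of the distribution between 66.5% and 75%, and held a median of 22 CpG dinucleotides. The medians over the 794 proximal Group I peaks were 55% and 6, over the 65 of Group II 66% and 19, and over all CpG-rich protein-coding promoters 67.5% and 19. The ratio of observed to expected CpG dinucleotides had a median of 0.904 in Group III and 0.863 in Group II, and the difference between these medians was not tested. The remaining 49 proximal Group III peaks missed the CpG limits in 500 bp. In 200 bp, the lowest CpG ratio of these 49, 0.155, was at *Tspan32*, a tetraspanin of blood cells, 11 bp from its TSS.

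**Figure D1:**
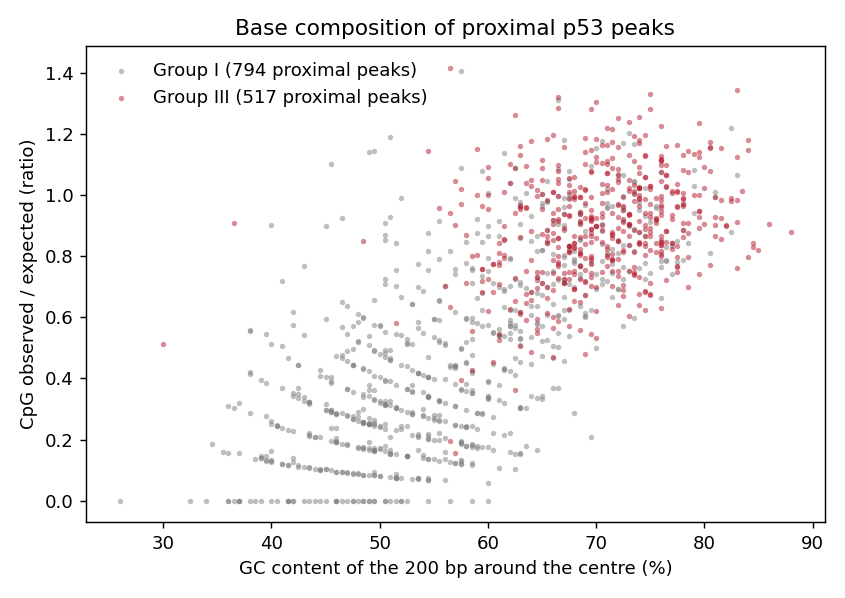
Each point is a proximal p53 peak of Group III or Group I, with the GC content of the 200 bp around its centre in percent on the x axis and the ratio of observed to expected CpG dinucleotides on the y axis. The 517 Group III peaks (red) gather around 70.5% GC and a ratio of 0.904, while the 794 Group I peaks (grey) have medians of 55% and 0.406.

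Relative to the direction of transcription, the Group III peaks sat just upstream of the start. Of the 505 centres within 1 kb of a protein-coding TSS, 414 were upstream of it (82.0%, interval 78.4% to 85.1%), 89 were downstream and 2 lay on it. In Group I, 249 of 638 were upstream (39.03%, interval 35.3% to 42.9%; exact test, odds ratio 7.11, adjusted p = 4.41e-50). In Group II 51 of 61 were upstream (83.6%, interval 72.4% to 90.8%), and a difference from Group III was not detectable with so few peaks (exact test, odds ratio 0.892, adjusted p = 0.861). The median position was 46 bp upstream in Group III, with the middle of the distribution between 84 and 13 bp upstream, and 374 of the 505 centres (74.1%) fell between 150 bp upstream and the TSS. In Group II the median was 49 bp upstream (62 bp without sign), and 41 of 61 centres fell in that stretch (67.2%). The median position in Group I was 97 bp downstream. Taken without sign, the distance had a median of 50 bp in Group III and 398 bp in Group I (two-sided permutation test of log10 distance with 100000 resamples, p = 2.00e-05, the smallest these resamples can give).

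The Groups also differed in side when CpG-rich peaks alone were taken. Among these, 379 of 462 in Group III were upstream (82.0%), compared with 58 of 212 in Group I (27.4%; exact test, unadjusted p = 6.67e-43), and the median distances were 50 and 191.5 bp (permutation p = 2.00e-05, again the smallest possible). Of the Group III peaks that were not CpG-rich, 35 of 43 were upstream (81.4%). By annotation, 357 of the 583 centres were upstream and outside the gene they belong to, 105 were in a 5′ untranslated region, 40 in an intron and 3 in a coding exon. A further 12 stood at the TSS of noncoding transcripts only, and 66 were over 1 kb from any TSS.

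**Figure D2:**
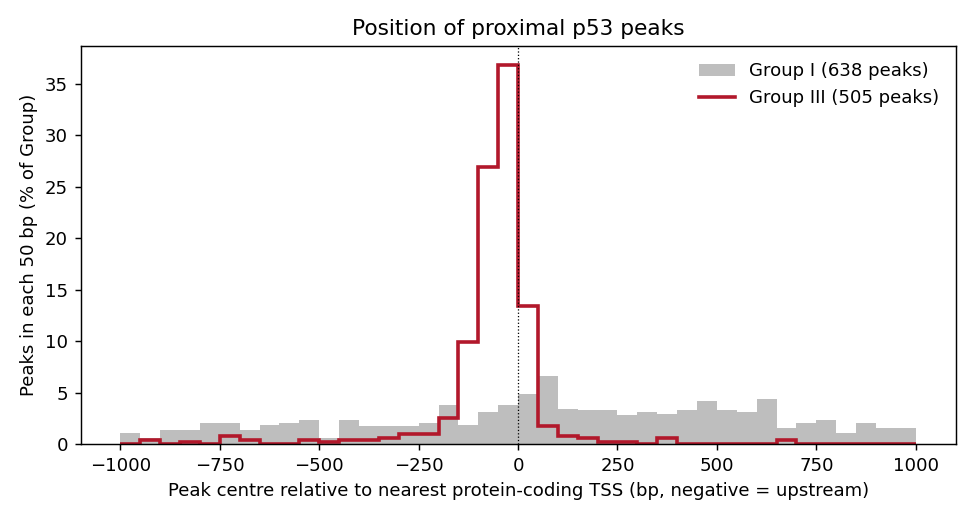
The x axis gives the distance of the peak centre from the nearest protein-coding TSS in bp, with upstream positions negative, and the y axis the percent of the Group's peaks in each 50 bp. The 505 Group III peaks (red line) form 1 narrow peak with its median 46 bp upstream, whereas the 638 Group I peaks (grey) spread over the whole range with their median 97 bp downstream.

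At bidirectional promoters, where both TSSs of a divergent pair of protein-coding genes lay within 1 kb of the centre, 62 of the 517 proximal Group III peaks were found (11.99%, interval 9.47% to 15.1%), against 46 of 794 in Group I (5.79%, interval 4.37% to 7.64%; exact test, odds ratio 2.22, adjusted p = 1.72e-04). Between CpG-rich peaks the shares were 12.6% and 8.29%, and this difference did not pass the threshold (exact test, unadjusted p = 0.118). In Group II the count was 4 of 65 (6.15%), and the difference from Group III did not pass the test (exact test, odds ratio 2.08, adjusted p = 0.255). Seen from the genes, 63 of the 1080 divergent pairs in the annotation (5.83%) had a Group III peak, *Wfdc3* and *Dnttip1* being counted under 2 gene identifiers. Of the 577 protein-coding genes with a Group III peak, 134 belonged to a divergent pair (23.2%), while 9.57% of all protein-coding genes and 16.4% of those with a CpG-rich 5′ end did.

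Within these pairs the peak lay mostly in the space between both starts. The centre was between the TSSs in 43 of 63 pairs, inside the gene on the minus strand in 11 and inside the gene on the plus strand in 9, and its median distance was 42 bp to the nearer and 113 bp to the farther TSS. The gap between the TSSs had a median of 108 bp, and 135 bp in the pairs without a Group III peak. The shortest gaps were the 3 bp between *Dhrs1*, a dehydrogenase, and 2610027L16Rik, the 13 bp between *Zbtb49*, a zinc finger factor, and *Lyar*, a nucleolar protein, and the 28 bp between 4930597O21Rik and *Gng12*, a G protein subunit. Next came the 29 bp between *Sdha*, the flavoprotein of mitochondrial complex II, and *Ccdc127*, and the 34 bp between *Noc4l* and *Ddx51*, both with a role in making ribosomes.

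In 4 pairs both genes belonged to a class of genes counted here. The peak chr5:8422754-8422853 was shared by *Dbf4*, the activator of the CDC7 kinase in DNA replication, 87 bp away, and *Slc25a40*, a mitochondrial carrier, 47 bp away. The peak chr6:91465843-91465942 was shared by *Xpc*, which recognises damaged bases in nucleotide excision repair, at 14 bp, and *Lsm3*, of the splicing machinery, at 137 bp. The peak chr8:109580682-109580781 was shared by *Cog8*, of the Golgi tethering complex, at 142 bp, and *Nip7*, of ribosome assembly, at 46 bp. The peak chr16:45158801-45158900 was shared by *Slc35a5*, of the nucleotide sugar transporters, at 31 bp, and *Atg3*, which attaches lipid to LC3 in autophagy, at 48 bp. In these pairs each centre lay between the starts of both genes.

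**Figure D3:**
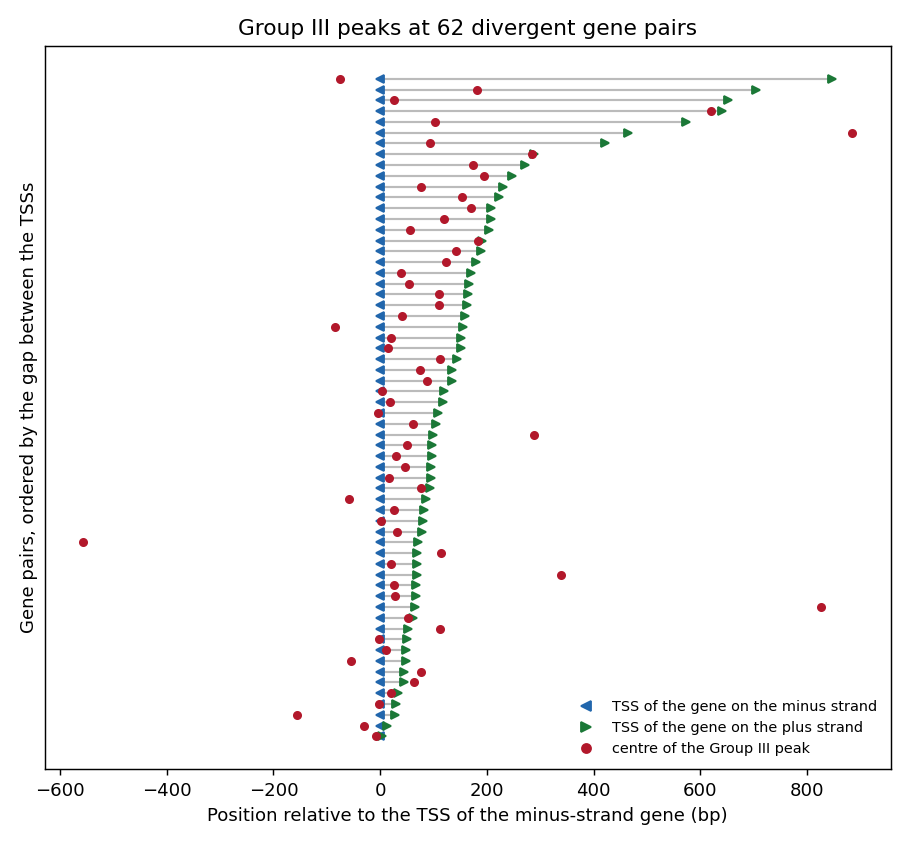
Each line is a divergent pair of genes with a Group III peak, ordered by the gap between the TSSs, with positions in bp from the TSS of the gene on the minus strand. Arrowheads mark the TSSs of the minus (blue) and plus (green) genes and red points the peak centre, which lies between both starts in 43 of 63 pairs, with *Wfdc3* and *Dnttip1* drawn once.

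Around the centre, several sequences of general promoter factors were more frequent than in Group I. The windows also differed in GC content, with medians of 70.5% in Group III and 55% in Group I. A GC box was present in 449 of 517 proximal Group III windows (86.8%, interval 83.7% to 89.5%), in 168 of 794 in Group I (21.2%, interval 18.5% to 24.1%) and in 40 of 65 in Group II (61.5%; Fisher's exact test for Group III against Group I, adjusted p = 6.84e-129, Benjamini-Hochberg over 12 motifs). A window of the same length, centred on the 5′ end of the gene, held a GC box at 40.0% of all protein-coding promoters. Among those that are CpG-rich it did so at 70.9%. Peak windows in Group III were centred mostly upstream of the TSS, and the effect of this offset was not tested. In Group III the GC box stood at a median of 16 bp from the peak centre, and 332 windows held 2 or more of them. The NRF1 site, bound by a regulator of nuclear genes for mitochondria, was in 48 Group III windows (9.28%) and 5 in Group I (0.630%; exact test, adjusted p = 1.80e-14), with 3.68% of CpG-rich promoters beside it. The CRE was in 28 (5.42%) against 1 (0.126%; exact test, adjusted p = 1.35e-10), with 3.62% of CpG-rich promoters and 2.11% of all promoters. The ETS site was in 50 (9.67%) against 12 (1.51%; exact test, adjusted p = 7.40e-11), with 8.06% of CpG-rich promoters. Among the 65 Group II windows, the NRF1 site was in 4 (6.15%), the CRE in 5 (7.69%) and the ETS site in 3 (4.62%), and no test was made of these against Group III. The paper's own de novo motif search had already returned SP1 and NRF1 motifs for the Group III peaks. The tests of the GC box and the NRF1 site on these peaks are therefore not independent evidence. Each motif was searched here as an exact word, so its share cannot be set against that of the paper's search.

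Higher shares in Group III were also found for the YY1 site (AAGATGGCG) with 3.48% against 0.378%, the E-box with 11.4% against 5.67% and the E2F site (GGCGGGAA) with 5.03% against 1.39% (exact tests, adjusted p = 2.59e-05, 3.06e-04 and 3.06e-04). In all CpG-rich promoters these shares were 2.95%, 8.80% and 3.85%. The CHR was lower in Group III, with 1.93% against 11.5%, as was the TATA box (TATAAA), with 1.16% against 5.79% (exact tests, adjusted p = 4.16e-11 and 1.75e-05). For the CCAAT box (CCAAT), bound by NF-Y, the shares were 16.8% and 18.5% (exact test, adjusted p = 0.503), both under the 29.7% of CpG-rich promoters. The ZBTB33 site (TCTCGCGAG) was in 3 windows against 2 (exact test, adjusted p = 0.466) and the ZNF143 site (CTACAATTC) in none of either Group. Over all protein-coding promoters the window at the 5′ end of the gene held an NRF1 site at 1.82%, an ETS site at 4.25% and a YY1 site at 1.62%. It held an E-box at 5.93% and an E2F site at 2.12%. The CHR was at 9.53% of all promoters, the TATA box at 9.01%, the ZBTB33 site at 0.747% and the ZNF143 site at 0.340%. When CpG-rich peaks alone were compared, the GC box (88.0% against 49.3%, exact test, adjusted p = 1.33e-25), the NRF1 site, the CRE and the ETS site passed the test, whereas the YY1 site, E-box, E2F site, CHR and TATA box did not. In Group II, the CCAAT box was in 19 of the 65 windows (29.2%), the E-box in 6 (9.23%), the CHR in 4 (6.15%), the ZBTB33 site in 3 (4.62%) and the YY1 site, E2F site and TATA box in none, again with no test. A motif here is a match of letters, and nothing was measured of the factor itself. How far base composition alone sets these shares was not tested, and taking CpG-rich peaks alone did not match the Groups in GC content.

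**Figure D4:**
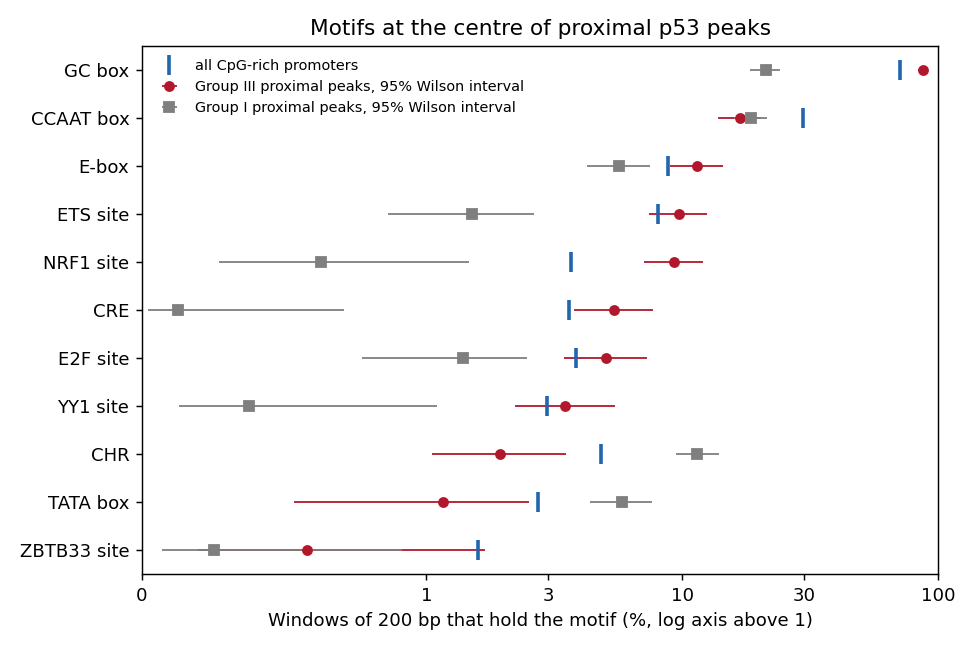
The x axis, logarithmic above 1, gives the percent of 200 bp windows holding each motif in proximal Group III peaks (red circles) and proximal Group I peaks (grey squares), with 95% Wilson intervals, and in all CpG-rich protein-coding promoters (blue bars). The GC box stands at 86.8% in Group III and 21.2% in Group I, and the CHR and TATA box stand higher in Group I.

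The binding sequence of p53 itself was rare. With both C and G pairs intact and at most 3 mismatches in 20 bases, it was found at 6 of the 517 proximal Group III peaks (1.16%) and at none of the other Group III peaks. The same search found it at 251 of 794 proximal Group I peaks (31.6%), at 8 of 65 in Group II (12.3%), at 0.801% of all protein-coding promoters and at 0.730% of the CpG-rich ones. The Group III share was thus near that of promoters at large, and the difference was not tested. The sites are printed below, 5′ to 3′ on the plus strand, with the C and G of both half-sites in capitals. They are the places where a match to the p53 sequence and a Group III peak coincide.
Pgpep1, chr8:73183638-73183657: gggCctGcgcggaCacGccc
Slc25a32, chr15:38944247-38944266: gagCttGcttagcCccGccc
Myo9a, chr9:59598591-59598610: aggCgtGtccgcgCaaGcgc
Mea1, chr17:46817994-46818013: ggaCttGtcctcgCttGcgt
Anln, chr9:22193720-22193739: ggcCaaGttgggaCtgGtcc
Usp8, chr2:126532950-126532969: acgCatGctcaggCcgGttc
Each of the 6 sites had 3 mismatches and lay within 49 bp of its peak centre, and all 6 centres were upstream of the nearest TSS. So were 5 of the sites, while that at *Slc25a32* spanned the TSS, from 4 bp upstream to 15 bp downstream. *Anln* and *Usp8*, a deubiquitinase of endosomes, stand beside *Slc25a32*, the mitochondrial folate carrier, *Myo9a*, a myosin with RhoGAP activity, *Pgpep1*, a peptidase, and *Mea1*, a gene expressed in male germ cells. The last 6 bases of the site at *Slc25a32* are a GC box read on the minus strand.

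At some genes a Group III and a Group I peak both stood within 1 kb of a TSS. This was so for 32 of the 577 protein-coding genes with a Group III peak (5.55%), beside 694 of all 22359 protein-coding genes that had a Group I peak (3.10%). Among genes with a CpG-rich 5′ end it was so for 30 of 484 (6.20%), beside 4.82% of all such genes with a Group I peak. The Group III centre was the nearer to the TSS of that gene in 29 of the 32, with a median distance of 67.5 bp against 468 bp, and in 16 genes the Group III peak was upstream and the Group I peak downstream of a TSS of the gene. *Apaf1*, which forms the apoptosome, had its Group III peak 39 bp upstream of a TSS, and its Group I peak 267 bp from that. *Birc5*, the anti-apoptotic and mitotic protein survivin, had its Group III peak 58 bp and its Group I peak 697 bp upstream. *Rest*, a repressor of neuronal genes, and *Cdan1*, the gene of a congenital anemia, had their Group III peaks 128 and 70 bp upstream. A p53 site was found in none of the 30 Group III peaks at these genes and in 4 of the 30 Group I peaks. The latter were at *Fbxw7*, a ubiquitin ligase subunit for cyclin E, *Idh1*, the isocitrate dehydrogenase of the cytosol, *Lrrfip1* and *Usp7*, where at *Lrrfip1* the site had 1 mismatch:
Fbxw7, Group I peak 1823, chr3:84756392-84756411, plus strand: tggCgtGcctgagCatGtcc
Idh1, Group I peak 3136, chr1:65232482-65232501, plus strand: aagCggGttttagCttGttt
Lrrfip1, Group I peak 4368, chr1:92895912-92895931, plus strand: gagCaaGctagggCatGttt
Usp7, Group I peak 2164, chr16:8791410-8791429, plus strand: ttaCatGtacaggCatGctc
At *Fbxw7*, *Lrrfip1* and *Usp7* the peaks of both Groups belonged to different starts of a long gene, with centres 137930, 53620 and 52305 bp apart. Centres were also far apart at *Rgl1* (140915 bp), *Actn4* (42566 bp) and *Idh1* (6823 bp), while the median over the 32 genes was 539.5 bp.

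The promoters belonged to 577 of 22359 protein-coding genes (2.58%), and to 484 of 9321 with a CpG-rich 5′ end (5.19%). These shares are the background for each class of genes, and no test was run on a class. Of 27 classes, 20 had a higher share than all genes, and counted within CpG-rich genes 17 had a share above 5.19%. The highest share was in autophagy and lysosome, with 7 of 63 genes (11.1%; 17.1% of the CpG-rich ones), among them *Atg5* at 11 bp, *Atp6v1b2*, a subunit of the proton pump that acidifies lysosomes, at 12 bp, *Lamtor3*, which anchors mTORC1 signalling to the lysosome, at 26 bp, and *Atg14*, of the kinase complex that starts the autophagosome, at 47 bp. Vesicle transport followed with 27 of 259 (10.4%; 13.8% of the CpG-rich ones), among them *Copg*, of the COPI coat, with the centre on its TSS, *Stx17* and *Snx1* at 3 bp and *Stx2* at 6 bp. Stx proteins drive membrane fusion, and Snx proteins sort cargo in endosomes.

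Classes of the p53 program and the cell cycle were also represented. Among p53 targets and regulators 4 of 39 genes had a Group III peak (10.3%), namely *Xpc*, *Apaf1*, *Sesn1*, a stress protein that restrains mTORC1, at 522 bp and *Fbxw7* at 741 bp, while 17 of the 39 had a Group I peak (43.6%), beside 3.10% of all protein-coding genes. Among cyclins, CDKs and mitosis there were 10 of 157 (6.37%), including *Haus1* of the spindle at 24 bp, *Smc5* at 33 bp, *Cenpj* of the centriole at 50 bp and *Birc5*. DNA replication had 4 of 58 (6.90%), with *Orc5* of the origin recognition complex at 22 bp, *Pold1* of DNA polymerase delta at 55 bp, *Chaf1b* of chromatin assembly at 73 bp and *Dbf4* at 87 bp. DNA repair had 4 of 97 (4.12%), with *Palb2* of the BRCA2 complex at 16 bp, the translesion polymerase *Polh* at 76 bp and *Parp1* at 120 bp beside *Xpc*. Within CpG-rich genes, the p53 class had 13.8%, the cyclin class 7.26%, DNA replication 8.51% and DNA repair 5.48%, the last near the background. Group I peaks stood at larger shares of all genes of these classes too. The shares were 8.28% of the cyclin class, 10.3% of DNA replication and 12.4% of DNA repair, and the differences were not tested.

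Classes of growth and protein turnover varied. Ribosome biogenesis had 5 of 70 genes (7.14%), with *Utp23* at 13 bp, *Ddx51* at 14 bp, *Nip7* at 46 bp and *Utp15* at 54 bp, and splicing had 7 of 101 (6.93%), with *Prpf40b* at 32 bp, *Hnrnpu* at 65 bp, *Hnrnph3* at 94 bp and *Lsm3*. The proteasome had 4 of 50 (8.00%), *Psmd14* with 2 gene identifiers, *Psma6* at 50 bp and *Psmd3* at 97 bp, and mitochondrial import had 2 of 23, *Tomm6* and *Tomm20*. The subunits of the ribosomes were at the background, with 2 of 84 cytosolic (2.38%, *Rps15* and *Rpl18*) and 2 of 76 mitochondrial proteins (2.63%, *Mrpl45* and *Mrpl52*). Within CpG-rich genes these were 1 of 62 (1.61%) and 2 of 53 (3.77%), both under the 5.19% of all such genes. The respiratory chain had 4 of 101 (3.96%), with *Ndufv1* of complex I at 1 bp, *Sdha* at 2 bp, *Sdhc* of complex II at 4 bp and *Ndufa13* at 728 bp. Within CpG-rich genes the shares were 8% for ribosome biogenesis, 7.41% for splicing, 7.5% for the proteasome, 6.35% for the respiratory chain and 1 of 17 for mitochondrial import (5.88%), the last near the background.

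Ubiquitin ligases and proteases had 16 of 330 (4.85%), with *Trim3* at 28 bp, *Usp45* at 30 bp, *Fbxo42* at 33 bp and *Usp3* at 39 bp. *Fbxo42* encodes an F-box protein known to bind p53. Chromatin regulators had 6 of 125 (4.80%), with *Ezh1*, a histone H3K27 methyltransferase, at 5 bp, *Smarcc1* of the SWI/SNF complex at 27 bp, the demethylase *Kdm1a* at 78 bp and the deubiquitinase *Bap1* at 97 bp. RNA polymerases and general transcription factors had 5 of 123 (4.07%), with *Gtf2h5* of TFIIH at 32 bp, *Polr1e* at 40 bp and *Supt3h* at 41 bp. Chaperones had 4 of 97 (4.12%), with *Hsp90aa1*, the inducible HSP90, at 14 bp, *Dnajc5* at 47 bp, *Dnajc30* at 49 bp and *Cct8* at 79 bp. Within CpG-rich genes both of these classes were under the 5.19% of all such genes, with 4 of 100 for the polymerases and general factors and 3 of 68 for the chaperones (4.41%). Translation factors had 3 of 67 (4.48%), *Eif2b5* at 16 bp, the heme-regulated kinase *Eif2ak1* at 55 bp and *Eef1g* at 64 bp, and the aminoacyl-tRNA synthetases had 2 of 37 (5.41%), *Lars2* and *Gars*. Solute carriers had 14 of 355 (3.94%), with *Slc45a4* and *Slc30a9* at 14 bp, *Slc3a2* at 19 bp and *Slc35a5*. Within CpG-rich genes, translation factors (3 of 54, 5.56%), chromatin regulators (5 of 87, 5.75%) and solute carriers (8 of 146, 5.48%) were near the 5.19% background, and the synthetases (2 of 32, 6.25%) and ubiquitin ligases and proteases (13 of 196, 6.63%) somewhat above it.

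In 5 classes no gene had a Group III peak. Of 37 hematopoietic transcription factors 1 had such a peak (2.70%), near the background, namely *Zfpm1*, the cofactor of GATA1, with the centre 661 bp upstream. It was also 1 of the 13 that are CpG-rich (7.69%). None was found at 203 genes of cytokines, chemokines and their receptors, of which 29 had a CpG-rich 5′ end, at 79 histone genes, of which 31 had one, at 1410 olfactory and vomeronasal receptors, of which 1 had one, or at 139 keratins and epidermal genes, of which 1 had one. Nor was there one at the 33 genes set here as factors of the motifs searched, 26 of them CpG-rich. That class left out some factors that did have such a peak, such as *Klf16* and *Lin54*. Zinc finger proteins of the Zfp series were near the background, with 10 of 434 (2.30%), among them *Zbtb49* at 1 bp, *Zfp438* at 5 bp, *Zfp512* at 67 bp and *Zfp217* at 90 bp, and with 6 of the 207 that are CpG-rich (2.90%), under the 5.19%. Together the classes took in 141 of the 577 genes (24.4%), and 20.7% of all protein-coding genes.

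**Figure D5:**
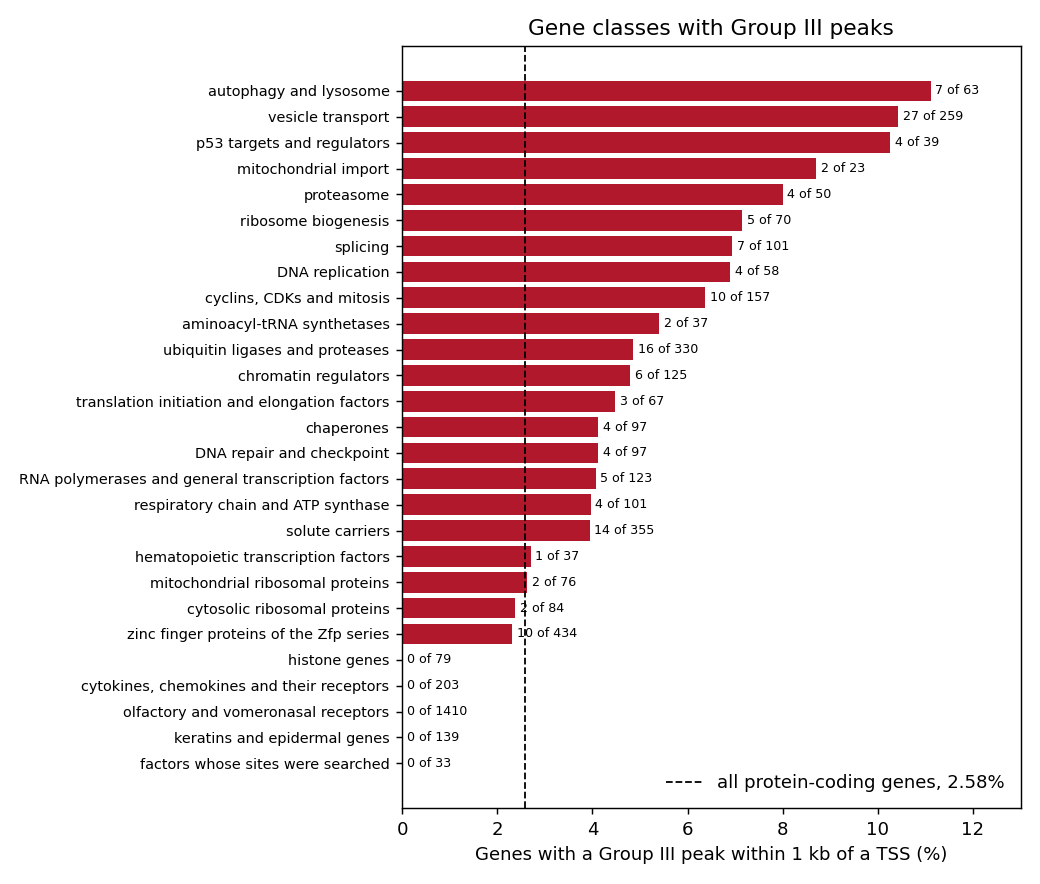
Bars give the percent of each class of protein-coding genes that had a Group III peak within 1 kb of a TSS, with the count beside each bar, and the dashed line is the 2.58% of all protein-coding genes. Autophagy and lysosome (7 of 63) and vesicle transport (27 of 259) stand highest, and 5 classes have none.

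Genes that the study names both for a Group III peak and for a change in expression each had such a peak here. *Stx2* had the centre 6 bp downstream of its TSS, and the other 8 of these 9 genes had it upstream, namely 5730508B09Rik at 11 bp, *Apaf1* at 39 bp, *Mrpl52* at 53 bp, *Anln* at 59 bp, *Ccne1* at 84 bp, *Dbf4* at 87 bp, *Nfkbie*, an inhibitor of NF-κB, at 110 bp and *Klf16*, a factor that binds GC boxes, at 120 bp. The GC content of their windows ran from 61.5% at *Mrpl52* to 81.0% at *Klf16*. A GC box was present in 8 of the 9, *Mrpl52* being the exception, and NRF1 sites stood at *Apaf1* and *Anln*. This gene list was made by the study on the same p53 peaks and is not independent evidence.

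Most promoters next to a Group III promoter had no p53 peak, as was so of protein-coding genes at large. The nearest protein-coding genes on both sides of a peak, leaving out those with a TSS within 1 kb of it, were 988 genes whose 5′ ends lay at a median of 50991 bp. Of these, 901 had no peak of any Group within 1 kb of a TSS (91.2%), 47 had a Group III peak (4.76%) and 41 a Group I peak (4.15%). Over all protein-coding genes these shares were 94.2%, 2.58% and 3.10%, and the differences were not tested. Of the neighbours, 514 had a CpG-rich 5′ end as most bound promoters did, and 447 of these 514 had no peak (87.0%), beside 89.9% of all CpG-rich genes. The closest CpG-rich neighbours without a peak included *Nsun2*, an RNA methyltransferase, 1041 bp from the peak of *Papd7*, and *Sart3*, a splicing factor, 1082 bp from the peak of *Iscu*, which assembles iron-sulfur clusters. Both *Nsun2* and *Sart3* lay just beyond the 1 kb limit within which a gene counted as having a peak. *Fancm*, of the Fanconi anemia pathway, stood 1550 bp from the peak of *Fkbp3*. Within 10 kb of a Group III centre, a Group I centre was found for 79 Group III peaks, a Group II centre for 1, and another Group III centre in 5 pairs, such as *Ing5* with *Dtymk* at 2272 bp. The only gene with 2 Group III peaks was 3110057O12Rik, whose peaks are near-copies of each other in sequence.

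Group III peaks were spread over the autosomes, and the X chromosome held 0 of the promoters. Among genes with a CpG-rich 5′ end, the share with a Group III peak was highest on chromosome 5 (55 of 665, 8.27%) and lowest among autosomes on chromosome 3 (16 of 440, 3.64%). On the X chromosome it was 0 of 202, and 1 of these 202 had a Group I peak. The 3 Group III peaks on the X chromosome were all over 1 kb from a TSS and had many similar sequences elsewhere in the genome.

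The 66 peaks over 1 kb from a TSS were less often CpG-rich than the proximal ones, and more of them had similar sequences elsewhere, though neither difference was tested. Their median distance to a TSS was 13081.5 bp, with 22 within 5 kb of one, and 49 were intergenic, 12 in introns, 3 in coding exons, 1 in a 3′ untranslated region and 1 in another transcript. Of these, 16 were CpG-rich (24.2%), their median GC content was 56.75%, and 33 of the 66 windows held a GC box (50%), against 86.8% of the proximal ones. A similar sequence elsewhere in the genome, identical in 90% or more of its bases over 150 bp or longer, was found for 19 of the 66 (28.8%), 12 of them with 10 or more copies, and for 8 of the 517 proximal peaks (1.55%). The 10 farthest peaks included 7207 on chromosome 3, 489945 bp from a TSS and with 54569 similar sequences, 7381 on chromosome 12, 403274 bp from the nearest TSS, that of a 5S rRNA gene, with 8, and 6838 on chromosome 19, 229020 bp from *Adra2a*, with 517. Also among them were 7003 and 6903 on chromosomes 6 and 5, which matched mitochondrial DNA at 95.4% and 98.5% identity, and 7353 on the Y chromosome, with 69 similar sequences. In all, 6 Group III peaks matched mitochondrial DNA, of which 7028 did so at 100%, 6955 at 99.5%, 6975 at 99.0% and 6974 at 96.5%. Reads from such copies cannot be placed with certainty, and their part in the counts was not tested. Without all peaks that had a similar sequence elsewhere, 509 proximal peaks were left.

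The following values along the order are a description, since the order is the measure that chose the peaks. In the first 117 numbers of Group III, 82.1% of peaks were proximal and 74.4% were CpG-rich, and in the last 116 these shares were 91.4% and 89.7%. The median GC content went from 68.5% to 74.25%, while the share upstream of the TSS was 80.9% and 84.6% and the median distance from it 57 and 62.5 bp. Bidirectional promoters made up 8.33% of the proximal peaks in the first 117 numbers, 16.8% in the next 117 and 9.43% in the last 116.

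On both sides of the limit with Group II, CpG-rich promoters prevailed. The last 5 peaks outside were all CpG-rich and stood at *Gclm*, which makes glutathione, Gcap14, *Ythdf1*, a reader of methylated RNA, *Lnpep*, an aminopeptidase, and *Rpl24*, a ribosomal protein, and the nearest TSS was between 61 and 755 bp away. The first 5 inside were at *Rnf114*, a ubiquitin ligase, at 100 bp, *Ctcf*, the insulator factor, at 162 bp, and 9030025P20Rik at 37 bp, with 2 peaks far from a TSS between them. At the other end, the last 10 peaks were at *Zfp217*, *Stk24*, a kinase, *Ninj1*, which ruptures the membrane of dying cells, *Haus1*, *Fnbp1*, *Dgkd*, a diacylglycerol kinase, *Lin54*, the subunit of the DREAM complex that binds CHR elements, and *Usp7*, with 2 peaks far from any TSS among them. The centre was on the TSS of *Stk24*, whose window had 88.0% GC, the highest among proximal Group III peaks. *Usp7*, the deubiquitinase of p53 and MDM2, had the last number of all, with the centre 600 bp upstream of the nearest TSS, and the CpG-rich window printed above.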

How the data were processed

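Reads were aligned to mm9 by the authors, using Bowtie 1.0.0, and p53 peaks were called over input DNA by MACS 1.4.1. The deposited list gives each peak a position of 100 bp and a number, and no count, signal or other score. The numbers follow the change in p53 binding with irradiation, as a fold, and the sizes of the study's Groups set the limits. How peaks of several libraries were merged is not given in the sources used here.

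The centre of each peak was compared with TSSs of GENCODE M1 on mm9 (NCBIM37), and proximal means at most 1 kb away. Motifs and GC content were read in 200 bp and CpG content in 500 bp around the centre. For promoters at large, these windows were centred on the 5′ end of the gene. Similar sequences were sought with BLAST+ 2.17.0 (word size 28, e-value 1e-20). Comparisons of Groups used Fisher's exact test (two-sided) and a permutation test from SciPy 1.17.1, at a threshold of 0.05. The other tools were matplotlib 3.10.9, samtools 1.23.1, pysam 0.24.0, NumPy 2.4.6 and Python 3.11.15. The searches and tests were tested on simulated data. The members, gene classes and motifs were chosen with earlier results of these data known. Gene classes were set by symbol, and named were the members of each class closest to a centre (up to 4), genes at both ends of the order and on both sides of its limit, genes named by the study, genes at p53 sites, the pairs with the shortest gaps or with both genes in a class, the farthest peaks, and genes with more than 1 peak. *Tspan32* and the genes named as neighbours were chosen after their values were seen. The alternatives were other distance and gap limits, other TSS sets, other CpG limits and motif windows, and CpG-rich peaks alone. A gene that this rule would name is not reported here.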

Additional observations from a re-analysis of the deposited data

How the results depend on the processing

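Between CpG-rich proximal peaks of both Groups, the difference in bidirectional promoters lost its call, with 12.6% against 8.29% (exact test, unadjusted p = 0.118), and 4 motifs in place of 9 passed the test. The shares of bidirectional promoters in Group III ranged from 11.03% with a gap of up to 500 bp to 15.9% with partners of any gene type, and each of these other definitions kept the call. The number of proximal Group III peaks was 504 with a limit of 500 bp and 539 with 5 kb, and the number of genes 552 and 637. Upstream peaks made up 76.9% when TSSs were taken at the 5′ end of each gene, against 38.2% in Group I, and 82.6% against 41.0% without bidirectional promoters, both past the threshold. With laxer CpG limits in 200 bp, 94.8% of proximal Group III peaks were CpG-rich against 30.2%. With a motif window of 50 bp either side, 9 motifs passed. The comparisons of side and distance between CpG-rich peaks, and the count without similar sequences, were added after the data were seen. No paired analysis was possible because each condition had 1 library, which also left no spread between replicates. The study's supplement gives tag densities for each peak, which were not used here, and how firmly a single peak was called, and in which library, was not analysed.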

Other observations

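At 12 Group III peaks the only TSS within 1 kb belonged to noncoding transcripts. The annotation gave 5 of these as long noncoding RNAs, such as 4930471M09Rik at 59 bp and 1810058I24Rik at 76 bp, 3 as pseudogenes, such as BC003965 at 63 bp, and 1 as a noncoding transcript of the tubulin gene *Tubb5* at 91 bp. The other 3 were the processed transcript Gm14453 at 627 bp, the RNA gene AC157822.1 at 72 bp and a U6 small nuclear RNA at 916 bp. The peaks at Gm11408 and Gm13340, both pseudogenes, were among those that matched mitochondrial DNA. Of the 517 proximal windows, 242 held 1 kind of the motifs searched, 198 held 2 kinds and 31 held none. Among the 577 genes with a Group III peak, 42 had a name that starts with Gm or ends with Rik, as genes named by their clone or by prediction do.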
